A study of Mus musculus with 6 samples.

Results

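Claudins are tetraspan membrane proteins that polymerise into the strands of the tight junction, and the mixture of claudins in an epithelium sets which ions and how much water pass between its cells. Some members seal the junction and others form pores. Claudin-18 has a stomach form that tightens the gastric epithelium against acid, whereas claudin-2 and claudin-15 form pores for cations and water and are best known from leaky epithelia such as the intestine, where both serve the sodium supply that nutrient uptake needs.

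The 8 genes described here are Cldn18, Cldn2, Cldn3, Cldn4, Cldn7, Cldn12, Cldn15 and Cldn23, taken by symbol as a named list of epithelial claudins from 39179 deposited genes. All 8 had a value above 0 in every library, and all 8 passed the filter on low values. A further 17 rows carry a claudin symbol and serve for comparison.

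Mouse RNA-seq libraries of 2 groups, 3 in each, were compared. Sox2 KO mice carried CreER, a tamoxifen-activated recombinase, at the broadly expressed Rosa26 locus together with floxed alleles of Sox2, the gene of a stem and progenitor cell transcription factor. Sox2 WT mice carried the same floxed alleles and an unmodified Rosa26 locus. Both groups were on a mixed C57BL/6 x 129 background, received tamoxifen at 8 weeks of age and were sampled 2 weeks later, and RNA came from the pylorus after removal of the muscle. Because the Sox2 WT mice had no CreER, loss of Sox2 and activity of the recombinase cannot be told apart, and since Rosa26 is active in most cell types, CreER was not limited to epithelium. Whether the 3 libraries of a group came from different mice is not stated, and p-values therefore refer to library-to-library spread, part of which may be technical.

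The libraries held 22015344 to 32581733 reads in genes, recovered from the deposited RPKM (reads scaled by gene length and by library depth). Where values are listed by library they run over replicates 1 to 3 of each group. Sox2 itself was at 0.342, 0.210 and 0.420 RPKM in Sox2 KO, against 11.1, 9.03 and 10.9 RPKM in Sox2 WT. Its mean in Sox2 KO was 3.13% of that in Sox2 WT. Sex differed along with genotype: by Xist, which marks an inactive X, the Sox2 KO libraries and Sox2 WT replicate 1 were male (at most 0.0124 RPKM), and the remaining Sox2 WT libraries were female (36.3 RPKM in replicate 2 and 33.3 RPKM in replicate 3). The Sox2 WT libraries thus came from at least 2 mice. Gastric markers were abundant: the 5 surface mucous genes summed to between 104000 and 161000 RPKM in Sox2 KO and between 90600 and 153000 RPKM in Sox2 WT. Of the 12 intestinal epithelial markers, 5 passed the filter, with means over the 6 libraries of 150 RPKM for Apoa1, 77.8 RPKM for Vil1, 20.1 RPKM for Apoa4, 19.5 RPKM for Fabp2 and 7.82 RPKM for Alpi. Among the other 7, no library had a value above 0 for Sis or Mep1a, and Cdx1, Cdx2, Lct, Cdh17 and Muc2 averaged under the filter of 0.5 RPKM. The summed intestinal list, most of it Apoa1 and Vil1, ranged from 216 to 306 RPKM in Sox2 KO and from 192 to 433 RPKM in Sox2 WT. It sorted the libraries in the same order as the summed parietal markers, from Sox2 WT replicate 2 down to Sox2 WT replicate 3. The summed endothelial markers gave that same order. How much of the intestinal sum came from intestinal cells was not tested. These are bulk samples, in which fewer cells of a type and less RNA per cell cannot be told apart.

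Promoter sequences of the genes set against each other are shown first. RefSeq gives 300 bases (250 before and 50 after the start site, build GRCm38.p6) for 7 of the 8 members, and those of Cldn15, Cldn2 and Cldn18 are printed 5′ to 3′ on the strand of the gene. Capitals mark matches, on either strand, to TTTATG or TTTATT, which are words of the binding motif of the intestinal CDX factors, or to ACAATG or ACAAAG, words of the motif of SOX factors. Cldn18 has an upstream and a downstream start site.
Cldn15 (chr5:136967619-136967918, + strand): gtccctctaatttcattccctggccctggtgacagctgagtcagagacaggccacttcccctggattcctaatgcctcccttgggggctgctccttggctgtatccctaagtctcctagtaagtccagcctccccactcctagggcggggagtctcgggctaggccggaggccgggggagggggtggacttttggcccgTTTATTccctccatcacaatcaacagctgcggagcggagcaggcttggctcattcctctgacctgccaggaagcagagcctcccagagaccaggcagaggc
Cldn2 (chrX:139800558-139800857, + strand): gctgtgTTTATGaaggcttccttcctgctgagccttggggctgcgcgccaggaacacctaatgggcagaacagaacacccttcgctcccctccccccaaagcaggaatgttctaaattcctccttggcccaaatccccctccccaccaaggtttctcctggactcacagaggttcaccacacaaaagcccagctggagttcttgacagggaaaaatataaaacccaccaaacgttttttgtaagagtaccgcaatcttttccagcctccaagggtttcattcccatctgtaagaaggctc
Cldn18, upstream start (chr9:99717218-99717517, - strand): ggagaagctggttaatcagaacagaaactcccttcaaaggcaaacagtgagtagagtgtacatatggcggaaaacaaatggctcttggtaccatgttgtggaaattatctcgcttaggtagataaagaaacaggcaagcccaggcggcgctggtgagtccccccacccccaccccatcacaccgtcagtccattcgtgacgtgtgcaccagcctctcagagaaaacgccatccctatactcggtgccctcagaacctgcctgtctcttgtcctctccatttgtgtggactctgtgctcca
Cldn18, downstream start (chr9:99710014-99710313, - strand): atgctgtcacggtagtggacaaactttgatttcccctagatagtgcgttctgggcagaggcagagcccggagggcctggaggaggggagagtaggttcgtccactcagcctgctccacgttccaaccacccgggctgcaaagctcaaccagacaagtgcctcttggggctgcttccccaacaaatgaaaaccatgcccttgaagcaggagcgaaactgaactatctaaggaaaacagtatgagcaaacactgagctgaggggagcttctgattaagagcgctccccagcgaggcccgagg

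The Cldn15 window held TTTATT with its first base at position -51 from the start site, and the Cldn2 window held TTTATG at position -244. Neither Cldn18 window held any of the 4 words, and among the other members with a window a single match was found, to ACAAAG on the opposite strand of Cldn4. A CDX word is found in 27.6% and a SOX word in 28.6% of 32851 promoter windows of this length. These matches therefore describe the letters only, and whether a factor binds at them was not tested.

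In level, Cldn18 dominated the claudins of the pylorus. Its mean of 362 RPKM over the 6 libraries was 9.43 times that of Cldn2, at 38.4 RPKM, and it ranked 88th of the 14045 tested genes. Cldn7, a claudin of the whole basolateral membrane, averaged 15.6 RPKM, Cldn12 7.38 RPKM, Cldn23 5.46 RPKM, Cldn3 2.24 RPKM, Cldn4 2.00 RPKM and Cldn15 1.76 RPKM. Cldn18, Cldn2 and Cldn7 each lay above the next gene in that order with no overlap of their 6 values. RPKM depend on the gene length used. The length recovered for Cldn12 was 7508 bases, against 4228 bases of exons in GENCODE mouse release 21. For Cldn7 it was 1593 against 1948 bases. The gap between Cldn7 and Cldn12 therefore depends on these lengths. From Cldn12 downwards, each neighbouring pair in the order had overlapping ranges. Cldn18 made up 86.8%, 84.3% and 77.4% of the summed RPKM of the 8 genes in Sox2 KO, against 80.7%, 85.1% and 84.6% in Sox2 WT. The 2 groups overlapped in that share.

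**Figure D1:**
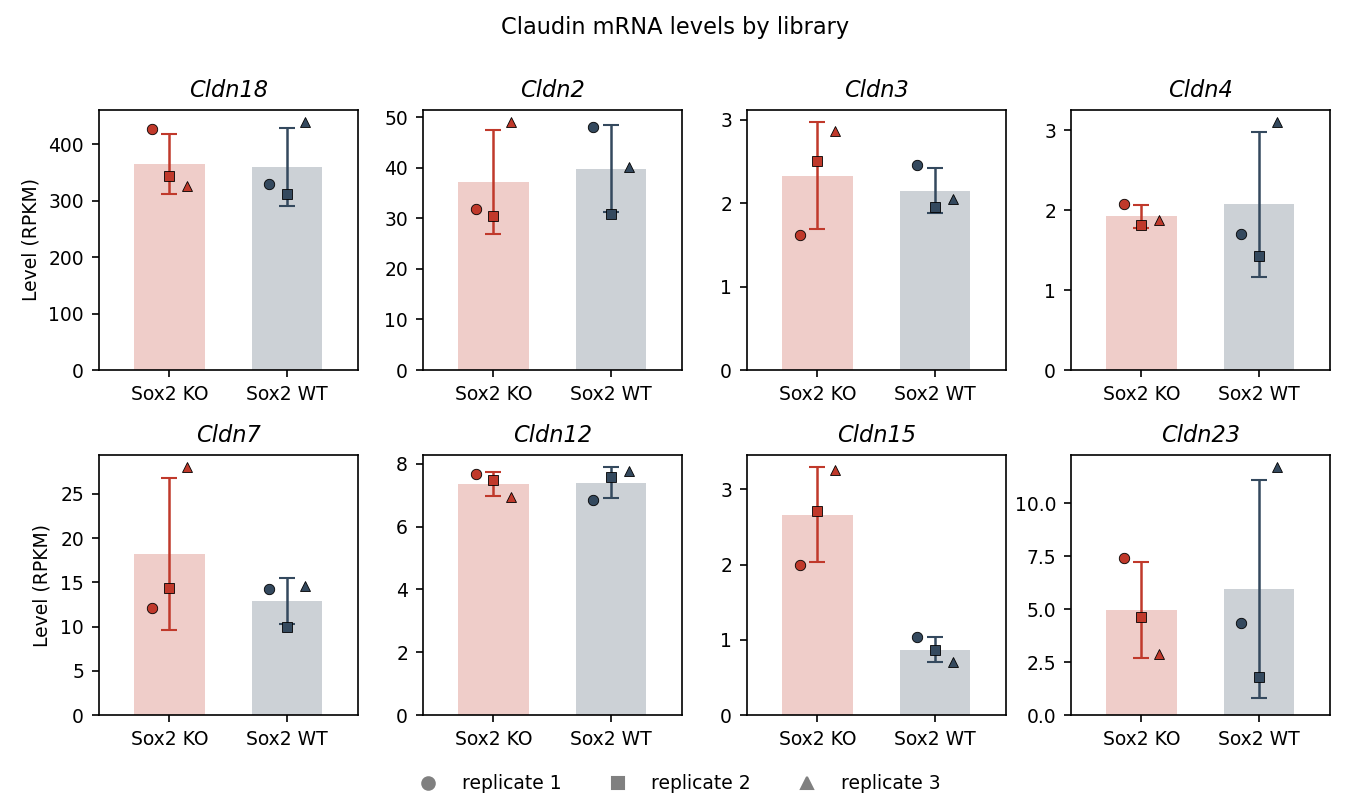
Level of each of the 8 claudins in RPKM, on a linear axis that starts at 0 and is scaled for each gene. Points are libraries, bars the mean of the 3 libraries of a group and error bars the SD. The 3 Sox2 KO values of Cldn15, 2.00 to 3.26 RPKM, lie above the 3 Sox2 WT values, 0.704 to 1.04 RPKM, and the groups overlap in the other 7 genes.

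The next comparison asked how the claudins stood after deletion of Sox2. The low-level pore claudin Cldn15 was higher in every Sox2 KO library than in every Sox2 WT library. Its pooled ratio of reads, scaled by depth, was 3.11 (exact 95% counting interval 2.58 to 3.77). That interval leaves out the spread between libraries. The gastric claudin Cldn18 and the abundant pore claudin Cldn2 overlapped between the groups. No member passed the test. On log2(RPKM + 0.5), limma called 0 of 8 at an adjusted p under 0.05, where 0.0285% of all tested genes were called (0.0142% higher and 0.0142% lower in Sox2 KO), and voom, run on recovered reads, also called 0. At an unadjusted p under 0.05 there was 1 of 8, Cldn15, beside 3.15% of all tested genes. The log2 fold changes of the members, Sox2 KO minus Sox2 WT, were positive in 4 and negative in 4, with a median of 0.01, against a median of 0.02 over all tested genes. In 1 of 8 the groups did not overlap, beside 7.08% of all tested genes in either direction, 4.09% with Sox2 KO above and 2.99% with Sox2 KO below.

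Cldn15 (ENSMUSG00000001739, chromosome 5, 136966616 to 136975858, + strand, mm10), which forms a paracellular sodium pore in the small intestine, was at 2.00, 2.71 and 3.26 RPKM in Sox2 KO, against 1.04, 0.859 and 0.704 RPKM in Sox2 WT. Every Sox2 KO value lay above every Sox2 WT value. These values rested on 126, 167 and 234 reads in Sox2 KO and on 53, 51 and 38 reads in Sox2 WT. The exact Poisson 95% interval of the lowest Sox2 KO library, 1.66 to 2.38 RPKM, lay above that of the highest Sox2 WT library, 0.777 to 1.36 RPKM. PCR copies are not independent molecules, and such intervals cover counting error only.

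The mean of Cldn15 was 2.66 ± 0.632 RPKM in Sox2 KO and 0.867 ± 0.167 RPKM in Sox2 WT (SD, n = 3 each). Its log2 fold change was 1.19 (SE 0.184, 95% interval 0.76 to 1.63). In order of p it was 20th of 14045 genes, and 0.306% of genes had a log2 fold change at least as high. It did not pass the correction over all genes (limma unadjusted p = 2.8e-04, adjusted p = 0.189), and an exact two-sided permutation test gave p = 0.1, the smallest that 3 libraries against 3 allow. Against the single male Sox2 WT library, as a fit with sex as a covariate sets it, the log2 fold change was 1.02 with a limma adjusted p of 0.999.

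Markers of goblet cells, the mucus-secreting cells of the intestine, were as a sum higher in the Sox2 KO libraries, as Cldn15 was. Within the groups the order differed. Among the Sox2 KO libraries the goblet sum was highest in replicate 1 and Cldn15 in replicate 3. Among the Sox2 WT libraries replicate 3 had the highest goblet sum and the lowest Cldn15. In Sox2 WT most of that sum was Agr2, at 1130, 850 and 1620 RPKM, and Clca1, at 517, 131 and 1010 RPKM. Agr2, Clca1 and Muc2 were highest in Sox2 WT replicate 3, Tff3 in replicate 2, and Zg16, Fcgbp and Spink4 in replicate 1, like Cldn15. In Sox2 KO, Zg16, Clca1 and Fcgbp were highest in replicate 1, Spink4, Tff3 and Muc2 in replicate 2, and Agr2 in replicate 3, like Cldn15. The 7 goblet genes summed to between 3560 and 5230 RPKM in Sox2 KO and between 1110 and 2840 RPKM in Sox2 WT, with no overlap. Of the 6 tested, 3 (Zg16, Clca1, deposited as Clca3, and Spink4) had every Sox2 KO value above every Sox2 WT value, and Agr2, which gastric mucous cells also express, pointed lower, at a log2 fold change of -0.48 (SE 0.309). Limma called 0 of the 6 (0.0285% of all tested genes), 5 had an unadjusted p under 0.05 (3.15% of all tested genes), and the 3 without overlap stand beside 4.09% of all tested genes with Sox2 KO above. The defining mucin gene Muc2 was at 0.573 ± 0.285 RPKM in Sox2 KO and 0.333 ± 0.0488 RPKM in Sox2 WT (SD, n = 3 each), near the bottom of the measured range. The intestinal transcription factor gene Cdx2 was at 0.526 ± 0.347 RPKM in Sox2 KO and 0.177 ± 0.141 RPKM in Sox2 WT (SD, n = 3 each), with overlapping values. Of the 5 tested intestinal epithelial markers 3 had a positive log2 fold change and 2 a negative one, with limma calling 0. Alpi, the intestinal alkaline phosphatase gene, was at 4.77 ± 2.30 RPKM in Sox2 KO and 10.9 ± 5.97 RPKM in Sox2 WT (SD, n = 3 each), a log2 fold change of -1.10 (limma unadjusted p = 0.0433), the single one of the 5 with an unadjusted p under 0.05. Fabp2, a fatty acid binding protein gene, was at -0.17 (SE 0.198). The positive ones were Apoa4 at 0.31 (SE 0.623), Apoa1 at 0.29 (SE 0.624) and Vil1 at 0.11 (SE 0.204). The 7 pancreas markers summed to between 291 and 456 RPKM in Sox2 KO and between 508 and 540 RPKM in Sox2 WT. Nearly all of that was Cela1, so the sum describes Cela1 and not pancreas. The other pancreas markers were at most 1.14 RPKM (Amy2b in Sox2 KO replicate 1), with Cpa1 at 0 throughout. The part of goblet and intestinal cells in the Cldn15 difference was not tested. The 6 endothelial markers summed to between 35.2 and 36.8 RPKM in Sox2 KO and between 28.5 and 40.9 RPKM in Sox2 WT and overlapped.

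Cldn2 (ENSMUSG00000047230, chromosome X, 139800828 to 139811386, + strand, mm10), the pore claudin with the highest level here, was at 31.8, 30.5 and 49.0 RPKM in Sox2 KO, against 48.1, 30.9 and 40.2 RPKM in Sox2 WT. High and low libraries occurred in both groups. The log2 fold change was -0.11 (SE 0.227, 95% interval -0.64 to 0.42). Cldn2 is X-linked, and its male Sox2 WT library, replicate 1, was above both female ones. With sex as a covariate the log2 fold change was -0.41 (limma adjusted p = 0.999).

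Cldn18 (ENSMUSG00000032473, chromosome 9, 99689461 to 99717267, - strand, mm10) was at 426, 343 and 326 RPKM in Sox2 KO, against 330, 311 and 439 RPKM in Sox2 WT. The 3 Sox2 KO values lay within the span of the Sox2 WT values. The log2 fold change was 0.03 (SE 0.190, 95% interval -0.42 to 0.47), from 43974 to 70153 reads a library, and it was -0.10 under quantile normalization. In the annotation Cldn18 overlaps the predicted gene Gm16004, whose reads cannot be told apart without strand information, and the value per gene does not separate its 2 start sites.

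The gastric and the pore claudins were then set against each other within each library. Cldn15 stood at 0.469%, 0.791% and 1.00% of the Cldn18 level in Sox2 KO, against 0.314%, 0.277% and 0.160% in Sox2 WT. The log2 ratio of Cldn15 to Cldn18 averaged -6.87 ± 0.501 in Sox2 KO and -8.03 ± 0.418 in Sox2 WT (SD, n = 3 each), a difference of 1.17, with every Sox2 KO library above every Sox2 WT library (exact two-sided permutation test p = 0.1, the smallest possible here). Cldn2 stood at 7.45%, 8.89% and 15.0% of the Cldn18 level in Sox2 KO, against 14.6%, 9.95% and 9.16% in Sox2 WT. Its log2 ratio averaged -3.31 ± 0.523 in Sox2 KO and -3.17 ± 0.356 in Sox2 WT (SD, n = 3 each), a difference of -0.14 with overlapping groups (exact two-sided permutation test p = 0.7). That difference turned to 0.07 without Sox2 KO replicate 1 or without Sox2 WT replicate 1. The pore claudins also parted from each other: Cldn15 was at 6.29%, 8.89% and 6.65% of the Cldn2 level in Sox2 KO, against 2.15%, 2.78% and 1.75% in Sox2 WT, given here without a test. Both ratios of Cldn15 reuse the Cldn15 values given above and are not separate evidence of a difference.

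**Figure D2:**
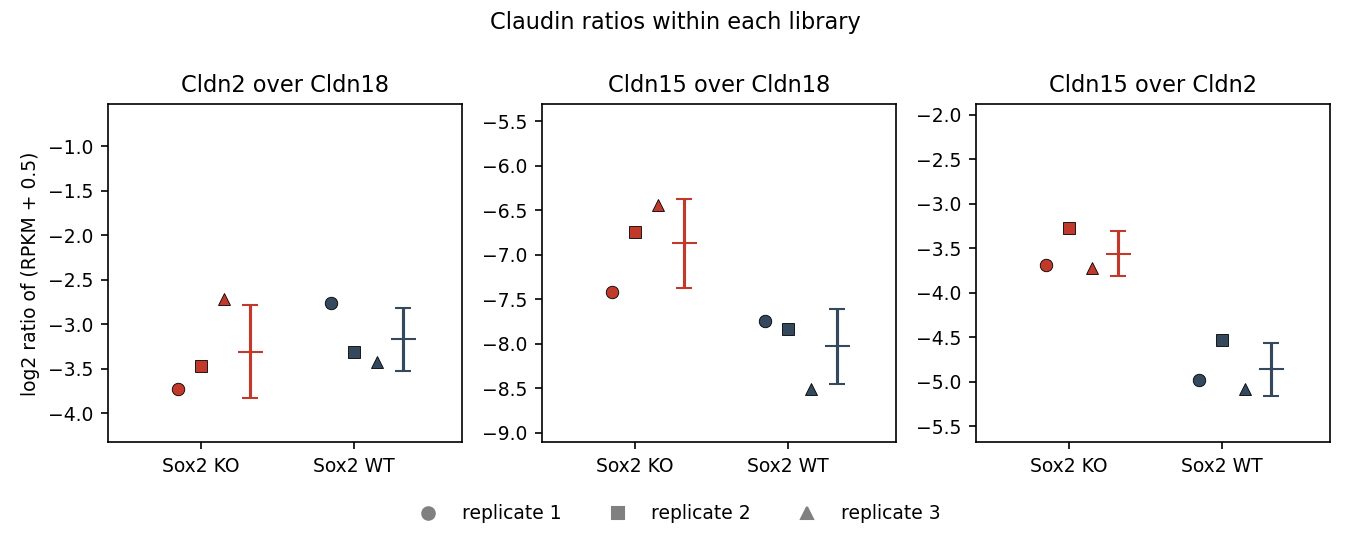
Ratio of 2 claudins within each library, as log2 of (RPKM + 0.5), on axes of equal span that do not start at 0. Points are libraries, horizontal marks the group mean and error bars the SD of 3 libraries. Cldn15 over Cldn18 averages -6.87 in Sox2 KO and -8.03 in Sox2 WT, and Cldn2 over Cldn18 averages -3.31 in Sox2 KO and -3.17 in Sox2 WT with overlapping points.

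Cldn7 was at 12.1, 14.4 and 28.0 RPKM in Sox2 KO, against 14.2, 9.99 and 14.6 RPKM in Sox2 WT. A single library, Sox2 KO replicate 3, lay far above the other 5. The log2 fold change was 0.40 (SE 0.307, 95% interval -0.32 to 1.12), and 0.05 without that library.

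Cldn3 and Cldn4, close relatives that both bind the enterotoxin of Clostridium perfringens and lie near each other on chromosome 5, were low in the pylorus. Cldn3 was at 1.62, 2.51 and 2.87 RPKM in Sox2 KO, against 2.46, 1.95 and 2.05 RPKM in Sox2 WT, with a log2 fold change of 0.07 (SE 0.192). Cldn4 was at 2.08, 1.81 and 1.88 RPKM in Sox2 KO, against 1.7, 1.42 and 3.10 RPKM in Sox2 WT, with a log2 fold change of -0.03 (SE 0.233). In the annotation Cldn3 overlaps Wbscr25. The groups overlapped in both genes, which rested on 61 to 123 and 72 to 143 reads a library. Leaving out 1 library turned the sign of each: Cldn3 was at -0.07 without Sox2 KO replicate 3 and Cldn4 at 0.24 without Sox2 WT replicate 3.

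Cldn12, an atypical claudin without the usual carboxy-terminal PDZ-binding motif, was the steadiest member. It was at 7.66, 7.49 and 6.94 RPKM in Sox2 KO, against 6.83, 7.57 and 7.77 RPKM in Sox2 WT. Its 6 values spanned 0.17 on the log2(RPKM + 0.5) scale, the smallest span of the 8 genes. The 95% interval of its log2 fold change ran from -0.25 to 0.24.

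Cldn23 spanned 2.40 on that scale, the widest of the 8. It was at 7.40, 4.61 and 2.88 RPKM in Sox2 KO, against 4.37, 1.81 and 11.7 RPKM in Sox2 WT. The highest and the lowest library were both Sox2 WT. The 95% interval of its log2 fold change, -1.37 to 1.36, was the widest of the 8.

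**Figure D3:**
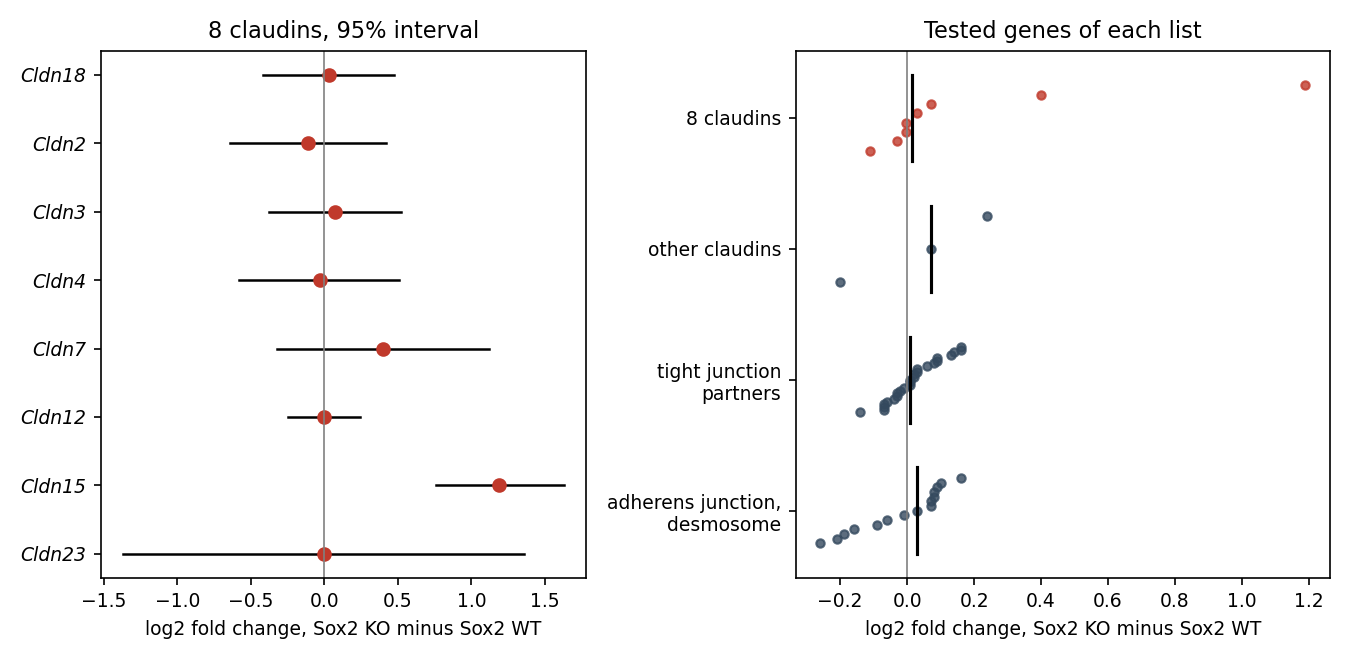
Log2 fold change, Sox2 KO minus Sox2 WT, on log2(RPKM + 0.5). The left panel gives each of the 8 claudins with its 95% interval from limma, where Cldn15 at 1.19 stands clear of 0; the right panel gives every tested gene of 4 lists as a point with the list's median as a bar, and the tight junction partners lie between -0.14 and 0.16.

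The libraries ordered the members in recurring ways that, Cldn15 apart, did not follow genotype. Sorted from the highest to the lowest library, Cldn18 and Cldn23 gave the same order: Sox2 WT replicate 3, Sox2 KO replicate 1, Sox2 KO replicate 2, Sox2 WT replicate 1, Sox2 KO replicate 3 and Sox2 WT replicate 2. Surface mucous markers and the epithelial list had the same pair of libraries at the top and Sox2 WT replicate 2 at the bottom. The parietal markers summed to between 715 and 1410 RPKM in Sox2 KO, and to 2740 RPKM in Sox2 WT replicate 2, above the 373 RPKM of Sox2 WT replicate 3 and the 780 RPKM of Sox2 WT replicate 1. The part of these cell types in the claudin levels was not tested. Of the 8 claudins 4 were highest in Sox2 KO replicate 3 (Cldn2, Cldn3, Cldn7 and Cldn15) and 4 in Sox2 WT replicate 3 (Cldn4, Cldn12, Cldn18 and Cldn23), and 4 were lowest in Sox2 WT replicate 2.

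Genes with the nearest pattern were sought for Cldn18, Cldn2 and Cldn15 by the root mean square difference of log2(RPKM + 0.5), each gene centred on its own mean over the 6 libraries, among 11186 genes. For Cldn18, whose own values deviated by 0.195 in root mean square, the nearest were Ralgps2, Sowahb, Rnf19b and Lrrc1, at differences of 0.0314 to 0.0357. For Cldn2, with a deviation of 0.288, they were E2f1, Fhl3, Orc1 and Onecut3, at 0.0376 to 0.0632. E2f1 encodes a transcription factor of S-phase entry and Orc1 a subunit of the origin recognition complex. For Cldn15, with a deviation of 0.630, they were Gng13, a G protein subunit gene of taste and tuft cells, the goblet cell gene Spink4, the collagen gene Col6a5 and Lrmp. Their differences of 0.211 to 0.261 were larger than those found for Cldn18 and Cldn2. The 6 libraries are the points behind each likeness, which is a description without a test.

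**Figure D4:**
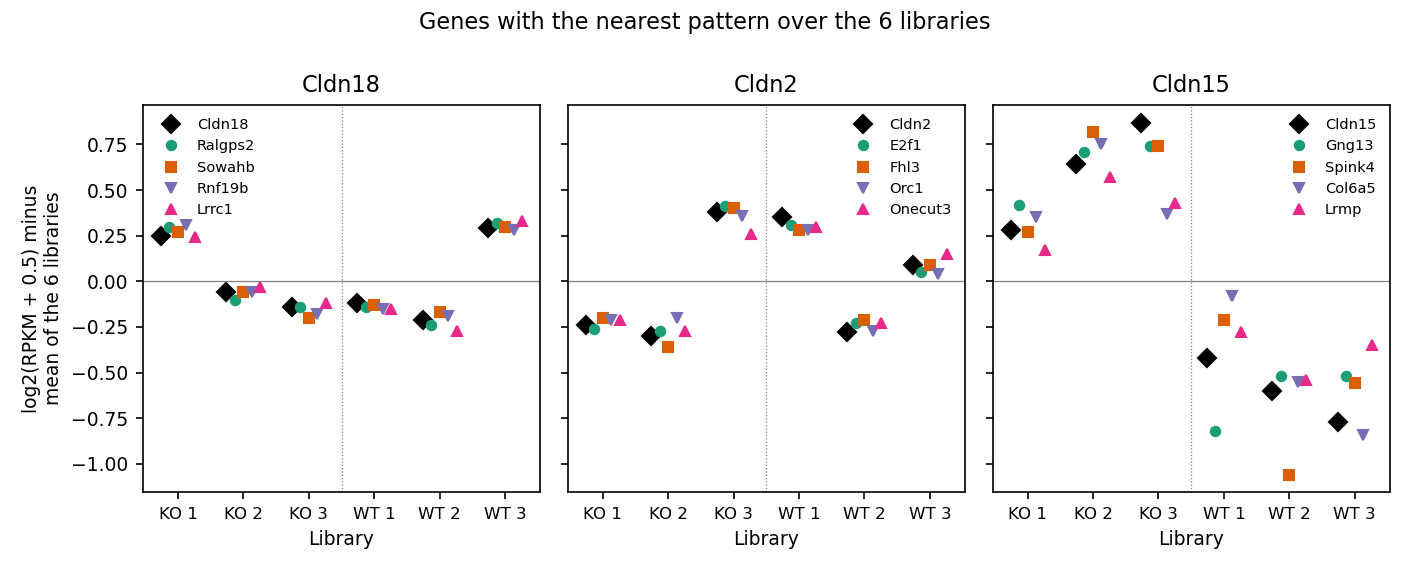
Deviation of log2(RPKM + 0.5) from the mean of the 6 libraries for Cldn18, Cldn2 and Cldn15 (black diamonds) and the 4 genes nearest to each, by library. The dotted line separates Sox2 KO from Sox2 WT libraries; Cldn15 and its 4 nearest genes lie above 0 in the 3 Sox2 KO libraries and below 0 in the 3 Sox2 WT libraries.

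Of the other 17 claudin rows, 8 were listed at 0 in all 6 libraries (Cldn13, Cldn14, Cldn16, Cldn17, Cldn19, Cldn20, Cldn24 and Cldn26) and 3 passed the filter. Limma and voom called 0 of these 3, and 0 had an unadjusted p under 0.05. The row with the highest level, Cldn25, whose identifier the newer annotation names Cldnd1, was at 22.3 ± 2.48 RPKM in Sox2 KO and 21.1 ± 1.95 RPKM in Sox2 WT (SD, n = 3 each). Cldn5, the claudin of endothelial junctions, was at 2.89 ± 0.908 RPKM in Sox2 KO and 2.31 ± 0.365 RPKM in Sox2 WT (SD, n = 3 each; log2 fold change 0.24, SE 0.217). Cldn8 was at 0.629 ± 0.288 RPKM in Sox2 KO and 0.931 ± 0.916 RPKM in Sox2 WT (SD, n = 3 each).

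Below the filter, Cldn11 was at 0.237, 0.206 and 0.176 RPKM in Sox2 KO, against 0.293, 0.446 and 0.383 RPKM in Sox2 WT, from 11 to 13 reads in Sox2 KO and 13 to 23 reads in Sox2 WT. Cldn1, a sealing claudin of the epidermis, was at 0.202 ± 0.0566 RPKM in Sox2 KO and 0.157 ± 0.0682 RPKM in Sox2 WT (SD, n = 3 each). Cldn10, named after its values were seen, had 8, 7 and 6 reads in Sox2 KO and 1 read in each Sox2 WT library. Its pooled ratio of reads, scaled by depth, Sox2 KO over Sox2 WT, was 5.86 with an exact 95% counting interval of 1.75 to 30.7. That interval leaves out the spread between libraries and the choice of Cldn10 by its values. The level of Cldn10 was at most 0.0884 RPKM.

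Genes of the proteins that claudins work with overlapped between the groups. Among 25 tight junction partners, all tested, 15 had a positive and 10 a negative log2 fold change, with a median of 0.01, a lowest of -0.14 and a highest of 0.16. Limma called 0, voom called 0, and 0 had an unadjusted p under 0.05. Lsr, the lipoprotein receptor that recruits tricellulin to tricellular contacts, was at 145 ± 14.0 RPKM in Sox2 KO and 136 ± 19.6 RPKM in Sox2 WT (SD, n = 3 each). On the log2 scale, Sox2 KO minus Sox2 WT was 0.16 for the zonula occludens gene Tjp3 (SE 0.145), -0.03 for the junctional adhesion molecule gene F11r (SE 0.132) and 0.08 for Ybx3, which encodes a junction-associated Y-box protein (SE 0.165). Occludin, Ocln, was at 27.4 ± 4.84 RPKM in Sox2 KO and 27.4 ± 6.40 RPKM in Sox2 WT (SD, n = 3 each).

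Among 15 adherens junction and desmosome genes, all tested, 8 were positive and 7 negative, with a median of 0.03. Limma and voom called 0, and 0 had an unadjusted p under 0.05. In 1 of 15 the groups did not overlap, beside 7.08% of all tested genes in either direction. That gene, Nectin3, deposited as Pvrl3, had Sox2 KO below, at a log2 fold change of -0.16 (SE 0.109). The most abundant of the 15 genes, E-cadherin (Cdh1), was at 313 ± 50.9 RPKM in Sox2 KO and 299 ± 46.8 RPKM in Sox2 WT (SD, n = 3 each; log2 fold change 0.07, SE 0.184). Its partners Ctnna1 and Ctnnb1, the alpha- and beta-catenin genes, stood at 0.08 (SE 0.183) and 0.03 (SE 0.172) on the same scale, and the desmosomal cadherin gene Dsc2 at -0.21 (SE 0.258). Cldn15, at 1.19, lay above every gene of these 2 junction lists and above the other 7 claudins, of which Cldn7 came nearest at 0.40.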

How the data were processed

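RPKM were computed and deposited by the authors for 39179 Ensembl genes in 6 libraries. The tools named per the submitters' processing notes are STAR and CASAVA 1.7, with the build mm10. For the counting tool, annotation, strandedness and filters, the sources used here give nothing. The series table and the single-library tables held the same values. Coordinates come from GENCODE mouse release 21 (GRCm38), promoters from RefSeq.

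Whole reads were recovered by solving for a gene's length and a library's denominator. Values of 100% of 23538 genes came out whole within 1e-05 reads. Reads are the smallest numbers that also give a whole gene length, so some may be too low. Their sums were 91% to 109% of the denominators.

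The test was limma 3.58.1 (R 4.3.3, variance trend) on log2(RPKM + 0.5), over 14045 genes with a mean of at least 0.5 RPKM, 1 row per symbol, with Benjamini-Hochberg adjustment and a threshold of 0.05; the scale understates changes of low genes. The test was also run on simulated data. Their spread was set to a single value and not taken from these libraries, so that run does not show how the test performs on them. Ratios were tested by exact permutation. The named genes are the 8 members, Sox2, from the other claudins the 5 and from each junction list the 4 with the highest mean (none passed), the first 2 of marker lists where shown, and the 4 nearest patterns; other named genes were chosen after their values were seen. Members, lists and promoter words were chosen with earlier results of these data known. Of 19 alternatives, 18 were listed with the design and 1, voom on recovered reads, was added after the data were seen.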

Additional observations from a re-analysis of the deposited data

How the results depend on the processing

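No claudin and no junction gene passed the threshold under any of the 19 alternatives. Over all genes limma called 4, against 13 after centring on epithelial markers, 8 with voom, 1 with sex as a covariate, 1 with the replicate block and 1 to 8 when a library was left out. Deviations of same-numbered libraries had correlations of 0.009, 0.097 and -0.074, and those of differently numbered libraries ran from -0.158 to 0.165. Whether libraries of the same number shared a day or a litter is not stated, and these correlations cannot decide it. Under the replicate block Cldn15 was again at 1.19 (limma adjusted p = 0.575). Cldn15 was positive throughout, from 0.96 to 1.6, and from 1.06 to 1.35 with a library left out, with limma adjusted p from 0.173 to 0.999. Its ratio to Cldn18 differed by 0.88 to 1.58, and by 0.93 to 1.44 with a library left out. Signs that turned, the cause not tested, were Cldn18 at -0.11 and Cldn3 at -0.07 after epithelial centring, Cldn18 at -0.10 and Cldn23 at 0.01 after quantile normalization, Cldn3 at -0.09, Cldn4 at 0.14, Cldn12 at 0.10 and Cldn23 at 0.08 with sex as a covariate, and Cldn23 at 0.02 with a pseudocount of 0.1 and 0.03 with voom. Leaving out a library gave Cldn18 -0.09 to 0.18, Cldn2 -0.33 to 0.04, Cldn3 -0.07 to 0.27, Cldn4 -0.22 to 0.24, Cldn7 0.05 to 0.64, Cldn12 -0.06 to 0.04, Cldn23 -0.58 to 0.62 and the ratio of Cldn2 to Cldn18 -0.43 to 0.07. Cldn15 rests on 38 to 234 reads a library, and with 3 libraries a group no exact two-sided permutation test can pass 0.05.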
